A study of Homo sapiens with 8 samples.

Results

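The OAS and MX antiviral effectors described here are 9 genes: OAS1, OAS2, OAS3, OASL, MX1, MX2, SAMD9, SAMD9L and BST2, out of 19035 genes in the expression table. They were listed by name, with their levels in the SETD1A guide libraries against the control libraries already known, so the differences between the groups are given as a description of these genes and not as a test. The libraries came from the KPL-1 line, human breast cancer cells, here with a Cas9 gene switched on by doxycycline (iCas9). In 3 libraries the cells held an empty guide vector (sgEmpty, labelled wild type), and in 3 they held a guide against SETD1A, a histone H3 lysine 4 methyltransferase (sgSETD1A, labelled SETD1A knockout). All 6 libraries were taken on day 7 of doxycycline, so Cas9 was induced in the controls too. Whether the line was a single clone, which site the guide cuts and what share of alleles was edited are not given in the sources used here. The series also holds a guide pool counted at day 0 and day 14 in the same line, which was not analysed here.

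The labels checked against the data as follows. SETD1A stood at 17.5, 17.5 and 18.1 TPM in sgEmpty and at 9.36, 11.3 and 10.7 TPM in sgSETD1A, so its transcript was lower but present in every sgSETD1A library. TPM is a level per transcript length, scaled to the same total in each library, and it keeps no read depth, so the depth behind each value is unknown. Luminal epithelial markers were abundant: KRT8, KRT18, KRT19, EPCAM, CDH1, GATA3, FOXA1, MUC1 and ESR1 summed to between 14570 and 15659 TPM in sgEmpty libraries and between 16583 and 17110 TPM in sgSETD1A libraries. The 14 immune cell markers summed to between 2.36 and 2.51 TPM in sgEmpty and between 1.89 and 2.62 TPM in sgSETD1A, most of it CD68. CLEC4C and LILRA4, which mark plasmacytoid dendritic cells, a cell type rich in BST2, were at 0 in every library. IL3RA, which these and other cells express, was at 0.429, 0.635 and 0.597 TPM in sgEmpty and at 0.324, 0.176 and 0.406 TPM in sgSETD1A. The 6 fibroblast and endothelial markers summed to between 2.63 and 3.23 TPM in sgEmpty and between 2.50 and 4.26 TPM in sgSETD1A. Within sgSETD1A, replicate 1 stood apart from the others, with Pearson correlations of 0.9956 and 0.9954 against 0.9977 between replicates 2 and 3, across genes. Without it, the log2 differences described below were 1.86 for OAS1, 0.68 for OAS2, 1.20 for OAS3, 1.08 for OASL, -0.11 for MX1, 0.15 for MX2, 0.63 for SAMD9, 0.047 for SAMD9L and 0.36 for BST2.

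Interferons bind receptors on the cell surface, and the JAK1 and TYK2 kinases then activate transcription factors of the STAT family, which join IRF9 and bind a promoter element, the interferon-stimulated response element (ISRE). A second element, the gamma-activated site (GAS), is bound by STAT factors without IRF9. The genes described here are among those that this pathway induces. OAS1, OAS2 and OAS3 make 2',5'-linked oligoadenylates (2-5A) when they meet double-stranded RNA, a messenger that leads to the cleavage of RNA. OASL is a relative that lacks this synthetase activity and binds the sensor RIG-I. MX1 and MX2 are dynamin-like GTPases that block viral ribonucleoproteins and capsids, SAMD9 and SAMD9L are large cytosolic proteins that restrict poxviruses and slow translation and cell growth, and BST2 (tetherin) holds budding virions at the cell membrane.

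RefSeq promoter windows (250 bases before to 50 after the annotated start, GRCh38.p14) were matched for 6 of the 9 genes: OAS1, OAS3, MX1, SAMD9, SAMD9L and BST2, in 8 windows, since MX1 has 3 annotated starts. Those of OAS1, OAS3, BST2, SAMD9 and of the first MX1 start are shown because these genes share a pathway but had unlike levels and differences in the libraries. Capitals mark each match to the ISRE core, which is GAAA, any 2 bases and GAAA (TTTC, any 2 bases and TTTC on the other strand), and to the GAS core, TTCNNNGAA, which reads the same on both strands. The windows are chr12:112906712-112907011 on the + strand for OAS1, chr12:112938224-112938523 on the + strand for OAS3, chr19:17405581-17405880 on the - strand for BST2, chr7:93117930-93118229 on the - strand for SAMD9 and chr21:41420308-41420607 on the + strand for MX1. These coordinates belong to the sequence table and not to the expression files, whose build was hg19.
OAS1: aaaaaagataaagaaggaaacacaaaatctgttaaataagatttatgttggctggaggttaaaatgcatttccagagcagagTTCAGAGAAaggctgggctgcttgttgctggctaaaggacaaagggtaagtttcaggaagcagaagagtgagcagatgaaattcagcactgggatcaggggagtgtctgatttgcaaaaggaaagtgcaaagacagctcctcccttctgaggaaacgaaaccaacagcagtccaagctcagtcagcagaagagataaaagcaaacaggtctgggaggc
OAS3: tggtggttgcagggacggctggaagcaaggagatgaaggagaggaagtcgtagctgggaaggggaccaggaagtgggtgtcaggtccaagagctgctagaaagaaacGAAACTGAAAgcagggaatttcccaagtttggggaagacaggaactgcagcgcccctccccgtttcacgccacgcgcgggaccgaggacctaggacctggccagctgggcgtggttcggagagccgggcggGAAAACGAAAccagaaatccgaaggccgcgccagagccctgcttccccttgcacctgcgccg
BST2: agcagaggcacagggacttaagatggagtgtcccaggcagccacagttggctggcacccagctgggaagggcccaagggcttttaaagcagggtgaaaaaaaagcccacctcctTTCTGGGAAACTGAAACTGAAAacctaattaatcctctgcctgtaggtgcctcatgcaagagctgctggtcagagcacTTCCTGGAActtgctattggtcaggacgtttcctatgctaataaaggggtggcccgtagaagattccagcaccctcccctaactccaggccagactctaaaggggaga
SAMD9: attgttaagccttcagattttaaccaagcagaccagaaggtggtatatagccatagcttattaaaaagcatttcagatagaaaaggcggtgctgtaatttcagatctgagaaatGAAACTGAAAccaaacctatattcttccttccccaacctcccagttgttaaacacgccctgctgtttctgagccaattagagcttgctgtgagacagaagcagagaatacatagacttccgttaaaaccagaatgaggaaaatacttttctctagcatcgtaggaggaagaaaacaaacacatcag
MX1: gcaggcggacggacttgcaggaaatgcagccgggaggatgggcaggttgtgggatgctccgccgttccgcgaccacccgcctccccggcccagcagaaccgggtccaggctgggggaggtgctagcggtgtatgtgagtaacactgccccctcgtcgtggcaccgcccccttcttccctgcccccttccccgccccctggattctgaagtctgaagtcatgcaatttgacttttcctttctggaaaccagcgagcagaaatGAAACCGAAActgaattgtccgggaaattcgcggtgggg

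An ISRE core was found in a window of 4 of the 6 genes. OAS3 had one 143 bases before the start (GAAACTGAAA) and another 12 bases before it (GAAAACGAAA). BST2 had a pair at 130 and 124 bases before the start that overlap each other, and the first of them overlaps a GAS core at 136 bases. SAMD9 had one at 136 bases before the start, with the same letters, GAAACTGAAA, as the BST2 matches and the upstream OAS3 match. In MX1 the match lay 12 bases after the first annotated start (GAAACCGAAA), and the third MX1 window held another on the reverse strand, 196 bases before that start, overlapping a GAS core. The OAS1 window held a GAS core 168 bases before the start and no match to the ISRE core as spelled here, and the SAMD9L window held neither. Both windows did hold near matches, which were not counted. That of OAS1 is ggaaacgaaacc, where the GAAA stretches lie closer together than in the core. That of SAMD9L is aaaactgaaa, which differs from the core in its first letter. Near matches were not searched for in any window, so the absence of a match here is not the absence of an ISRE.

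The ISRE core was found in 3.57% of all 35116 windows in the table and the GAS core in 7.66%. By gene, 3.62% of 8708 tested genes with a window held an ISRE core in at least one. Among 42 other interferon-induced effector genes with a window, 27 did. Of those called higher in sgSETD1A it was 17 of 26, and of those tested but not called 5 of 8. A match is a description of letters and not a bound site.

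**Figure D1:**
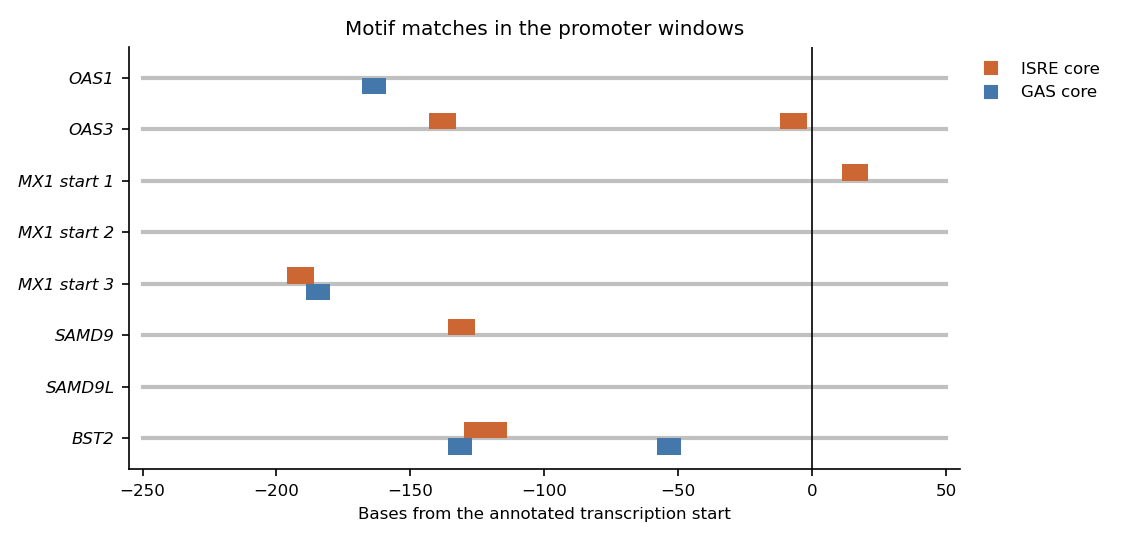
Positions of ISRE core (orange) and GAS core (blue) matches in the 8 promoter windows; the horizontal axis is the distance in bases from the annotated transcription start, and each grey line is a window. Matches of OAS3, SAMD9 and BST2 lie upstream of the start, and that of the first MX1 start lies 12 bases downstream.

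With TPM as deposited, 8 of the 9 genes were higher in all 3 sgSETD1A libraries than in any sgEmpty library, and MX1 was the exception. Of all 16152 genes above 0 in a library, 29.4% were separated in this direction, and of the 4267 with a mean under 1 TPM, 9.70%. After quantile normalization the differences of MX2 and SAMD9L turned to -0.085 and -0.049 on the log2 scale, so the direction of these 2 low genes depends on the scaling. Only 4 of the 9 had a mean of at least 1 TPM over the 6 libraries, the minimum for the limma fit: OAS1, OAS3, OASL and BST2. All 4 were called higher at an adjusted p under 0.05, against a background of 28.0% of the 11885 tested genes called higher, 13.5% called lower and 41.5% called in either direction. This count is no support for a change of the group, since the genes were chosen on this contrast, and OASL reached the minimum only through its sgSETD1A level. The number of transcripts per cell and the share of cells that make them cannot be told apart in these bulk libraries.

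**Figure D2:**
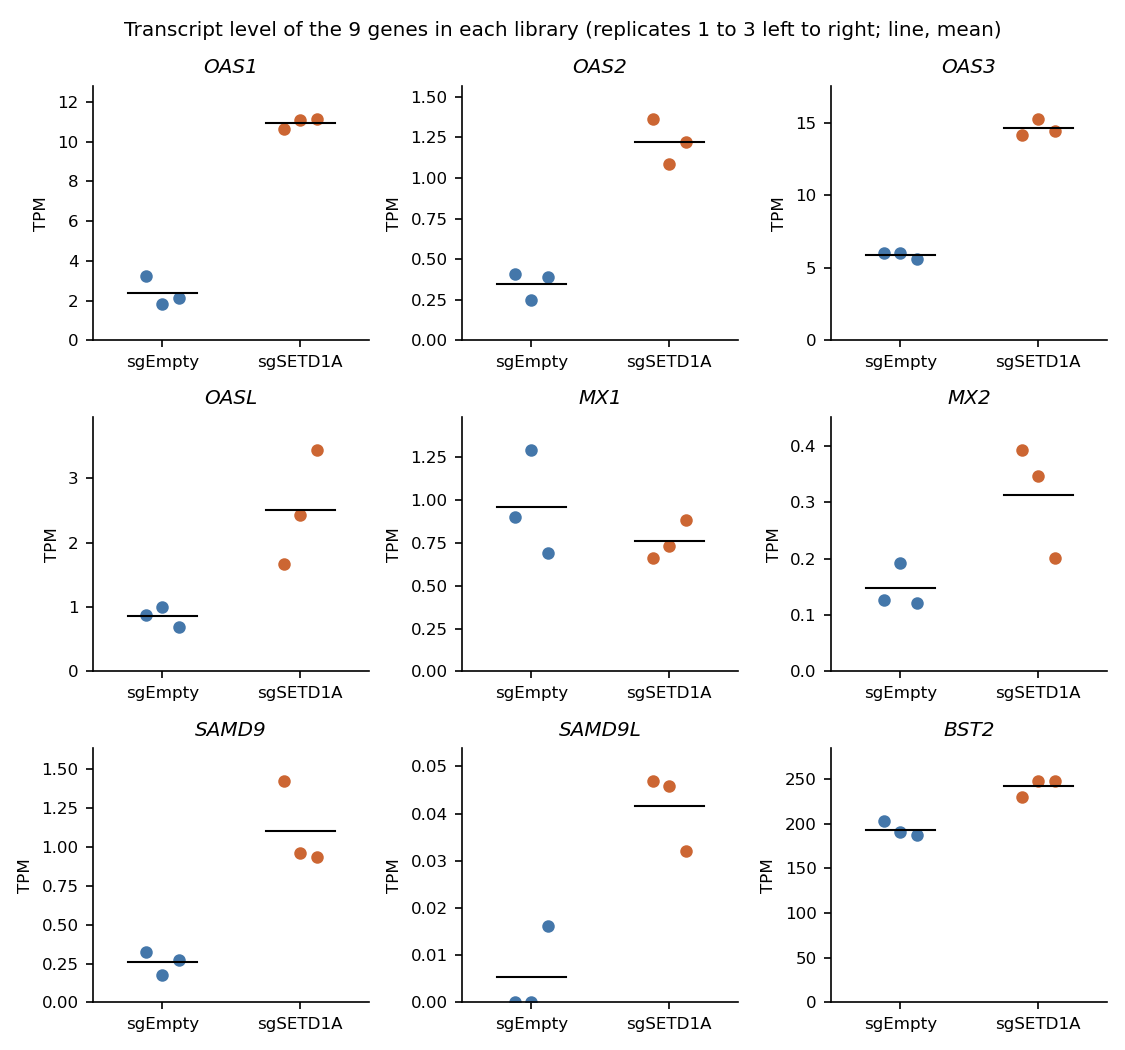
Transcript level (TPM, linear axes from 0, a different scale in each panel) of the 9 genes in the 3 sgEmpty (blue) and 3 sgSETD1A (orange) libraries; each point is a library and each line a group mean. The groups overlap in the MX1 panel and are separate in the other 8, with SAMD9L near 0 throughout.

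Of the synthetases, OAS1 differed most. Its level was 3.22, 1.82 and 2.15 TPM in sgEmpty replicates 1 to 3 and 10.6, 11.1 and 11.1 TPM in sgSETD1A. The sgSETD1A libraries lay close together, while sgEmpty replicate 1 was well above the other controls. The group means were 2.40 ± 0.73 and 11.0 ± 0.28 TPM (SD, n = 3), a ratio of 4.57, or 1.84 on the log2(TPM + 1) scale (SE 0.17 from the spread of the libraries). Without sgEmpty replicate 1 the difference was 2.0 log2.

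OAS3, the largest of the synthetases, was the most abundant of them. It stood at 6.04, 6.02 and 5.64 TPM in sgEmpty and at 14.2, 15.2 and 14.4 TPM in sgSETD1A. Both groups were tight and far apart. The means of 5.90 ± 0.23 and 14.6 ± 0.56 TPM (SD, n = 3) gave a ratio of 2.48 and a difference of 1.18 log2 (SE 0.040). OAS2 was low in both groups, at 0.407, 0.248 and 0.393 TPM in sgEmpty and 1.36, 1.08 and 1.22 TPM in sgSETD1A. Its groups did not overlap, and the ratio of its means, 3.50, lay between those of OAS3 and OAS1, although its log2(TPM + 1) difference was only 0.72 (SE 0.076), because the pseudocount of 1 TPM compresses low values. With a pseudocount of 0.1 TPM the OAS2 difference was 1.57 log2.

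OASL was at 0.871, 1.00 and 0.695 TPM in sgEmpty and at 1.68, 2.43 and 3.44 TPM in sgSETD1A. It was the most variable of the OAS genes in sgSETD1A, with an SD of 0.88 TPM about a mean of 2.52 TPM (n = 3), and replicate 1 was its lowest library. Its difference was 0.89 log2 (SE 0.22), 1.08 without sgSETD1A replicate 1 and 0.71 without replicate 3. The ratio of means was 2.94.

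The make-up of the OAS family also differed between the groups. The 4 transcripts summed to between 8.87 and 10.5 TPM in sgEmpty and between 27.8 and 30.2 TPM in sgSETD1A. OAS1 made up between 20.0% and 30.6% of that sum in sgEmpty and between 36.9% and 38.2% in sgSETD1A. The ratio of OAS1 to OAS3 was 0.533, 0.302 and 0.381 in sgEmpty replicates and 0.750, 0.729 and 0.772 in sgSETD1A, while OAS3 stayed the higher of the pair in all 6 libraries. The ratio of OAS2 to OAS1 overlapped between groups, from 0.127 to 0.183 in sgEmpty and from 0.0976 to 0.128 in sgSETD1A.

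MX1 and MX2 were low in all libraries, and MX1 was the gene of the 9 without a higher level in sgSETD1A. MX1, a gene often used as a readout of interferon, was at 0.904, 1.29 and 0.691 TPM in sgEmpty and at 0.661, 0.732 and 0.886 TPM in sgSETD1A. Its groups overlapped, and the highest library was a control. The means were 0.962 ± 0.305 and 0.760 ± 0.115 TPM (SD, n = 3), a difference of -0.15 log2 (SE 0.14), about its own error. This difference was below 0 in 11 of 11 processing alternatives, from -0.27 to -0.030, the smallest being without sgEmpty replicate 2. In the fit with no filter on low TPM, MX1 was not called, and neither were MX2 and SAMD9L, while 6 of the 9 genes were called higher, beside 18.8% of 16152 genes.

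MX2 was lower still, at 0.128, 0.192 and 0.122 TPM in sgEmpty and 0.393, 0.346 and 0.201 TPM in sgSETD1A. The groups were separated by 0.201 against 0.192 TPM, a gap far smaller than the range within sgSETD1A. The ratio of means was 2.13 and the log2(TPM + 1) difference 0.19 (SE 0.070).

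SAMD9 and SAMD9L lie side by side on chromosome 7 but were at very different levels. SAMD9 was at 0.322, 0.178 and 0.274 TPM in sgEmpty and at 1.42, 0.957 and 0.932 TPM in sgSETD1A. All sgSETD1A libraries were well above the controls, and replicate 1 was the highest. The ratio of means was 4.28, the next after that of OAS1 among the 8 genes with a ratio, and the difference was 0.74 log2 (SE 0.12), or 0.63 without sgSETD1A replicate 1. SAMD9L was listed at 0, 0 and 0.0162 TPM in sgEmpty and at 0.0469, 0.0459 and 0.0320 TPM in sgSETD1A. At such levels, and with the depth unknown, no fold is given.

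BST2 was by far the most abundant of the 9 genes, ranked 747 of the 11885 tested genes by its sgEmpty level, and differed least among the 4 tested. It was at 202.7, 190.0 and 186.9 TPM in sgEmpty and at 230.0, 247.3 and 247.3 TPM in sgSETD1A. The groups did not overlap. The means of 193.2 ± 8.36 and 241.6 ± 9.99 TPM (SD, n = 3) gave a ratio of 1.25 and a difference of 0.32 log2 (SE 0.050), which median-ratio rescaling of the libraries lowered to 0.25. The ratio of BST2 to OAS1 was between 63.0 and 104.4 in sgEmpty and between 21.6 and 22.3 in sgSETD1A.

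In sgEmpty the order of the levels per length was BST2, OAS3, OAS1, MX1, OASL, OAS2, SAMD9, MX2 and SAMD9L. MX1 and OASL overlapped across libraries, as did OAS2 with SAMD9 and SAMD9 with MX2. In sgSETD1A the order was BST2, OAS3, OAS1, OASL, OAS2, SAMD9, MX1, MX2 and SAMD9L, where only OAS2 and SAMD9 overlapped as neighbours. By group mean, MX1 thus stood above OASL, OAS2 and SAMD9 in the controls and below all of them in sgSETD1A. In sgEmpty replicate 3, however, MX1 was just below OASL (0.691 against 0.695 TPM). The ratio of SAMD9 to MX1 was 0.356, 0.138 and 0.396 in sgEmpty and 2.15, 1.31 and 1.05 in sgSETD1A, so SAMD9 was below MX1 in every control and above it in every sgSETD1A library.

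**Figure D3:**
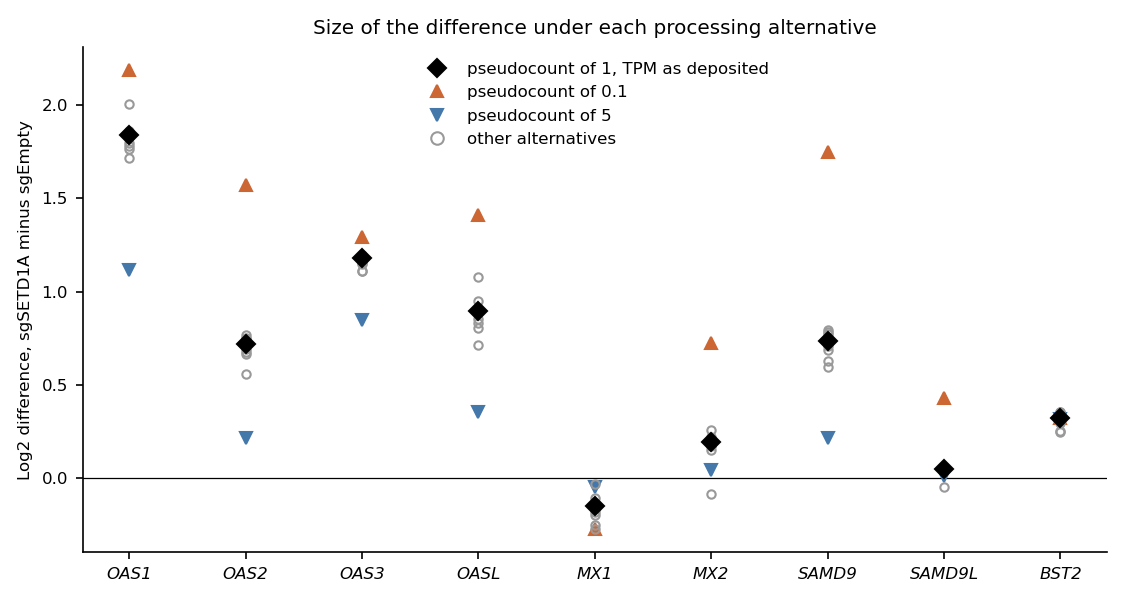
Log2 difference, sgSETD1A minus sgEmpty, of each of the 9 genes (vertical axis) with a pseudocount of 1 (black diamonds), 0.1 (orange) or 5 TPM (blue) and under the other processing alternatives (open circles). BST2 hardly moves with the pseudocount, OAS2 and SAMD9 move from about 0.2 to above 1.5, MX1 stays below 0, and MX2 and SAMD9L fall below 0 after quantile normalization.

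Among the partners of the synthetases, 3 were tested, of which 1 rose and 1 fell. Over all tested genes, 28.0% were called higher and 13.5% lower. ABCE1, a ribosome recycling factor that also restrains the 2-5A pathway, fell from 50.3 ± 0.96 to 43.8 ± 1.55 TPM (SD, n = 3; -0.20 log2, limma adjusted p = 0.00668). PDE12, which degrades 2-5A, rose from 11.1 ± 0.75 to 13.1 ± 1.18 TPM (SD, n = 3; 0.22 log2, limma adjusted p = 0.0475), a call that was lost in 9 of 14 alternatives: both rescalings, no filter, no trend, the replicate block, and without sgEmpty replicate 1 or 2 or sgSETD1A replicate 1 or 2. AKAP7, which can also degrade 2-5A, was under the TPM minimum, at 0.846 ± 0.061 and 0.825 ± 0.051 TPM (SD, n = 3).

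Relatives of the MX proteins were counted beside the 28.0% of all tested genes called higher. Of 5 other dynamin family genes, DNM1L, which divides mitochondria, rose by 0.23 log2 (limma adjusted p = 0.00275), and the other 4 were not called: DNM1 (0.036), DNM2 (0.055), DNM3 (-0.11) and OPA1 (0.047 log2). Among the guanylate-binding proteins, interferon-induced GTPases of the same superfamily, GBP2 alone reached the minimum and was not called (5.11 ± 0.18 TPM in sgEmpty and 5.68 ± 0.73 TPM in sgSETD1A; SD, n = 3; 0.12 log2, limma adjusted p = 0.304). GBP1 and GBP5 were at 0 in all libraries, and GBP3 and GBP4 did not exceed 0.0764 TPM.

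The other interferon-induced effectors, 51 genes of which 38 were tested, gave 27 called higher (28.0% of all tested genes were), 0 lower and 11 not called, and their median difference was 0.43 log2, where that of all tested genes was 0.073. This list, too, was chosen with earlier results of these data known. Of those called, IFIT3, HERC5, DDX60 and DDX60L (0.735, 0.648, 0.559 and 0.867 TPM in sgEmpty) reached the TPM minimum only through their sgSETD1A level. Among the tested genes, the largest rises were those of IFIT1 (2.23), IFI27 (1.90), IFI6 (1.85), ISG15 (1.01), IFIT2 (0.97) and HELZ2 (0.94 log2). IFI44, under the TPM minimum, differed by 0.99 log2. IFIT1 and IFIT2 bind viral RNA, ISG15 is a ubiquitin-like modifier and HELZ2 a helicase, listed under its older symbol PRIC285. The median of the 4 tested genes described here was 1.04 log2 and that of all 9 was 0.72. Some effectors of this list differed by less than their error: SLFN5 (-0.012), TRIM5 (0.029), PLSCR1 (0.043) and IFITM2 (0.060 log2), which were named after their values were seen. Of the 51 genes, 36 had separate groups in the higher direction, beside 29.4% of all genes above 0 in a library.

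Sensors and adaptors upstream of interferon gave 5 called higher and 0 lower of 7 tested, beside 28.0% of all tested genes called higher. The RNA sensors RIGI (listed as DDX58) and IFIH1 rose by 0.56 and 0.54 log2, and the adaptors TICAM1 and MYD88 and the kinase TBK1 by 0.34, 0.26 and 0.13. The TBK1 call was marginal (limma adjusted p = 0.0371). After median-ratio rescaling 4 of the 7 were called higher, and 4 to 5 were when each library was left out in turn. Among signalling components and IRF factors, 6 of 14 tested rose and 0 fell, beside the same 28.0%. After median-ratio rescaling 5 of the 14 rose, beside 1837 of all 11885 tested genes. IRF9 went from 31.4 ± 1.75 to 62.8 ± 6.11 TPM (SD, n = 3; 0.97 log2, limma adjusted p = 1.72e-05). IRF7, JAK1, IRF1 and STAT2 rose by 0.41, 0.38, 0.29 and 0.21 log2.

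The receptors did not pass the test. Of the 6 genes, the 5 tested were IFNAR1 (0.038), IFNAR2 (0.23), IFNGR1 (0.015), IFNGR2 (0.065) and IL10RB (-0.0034 log2), with limma adjusted p-values from 0.208 to 0.976. IFNLR1, listed as IL28RA, was at 0.378 ± 0.089 and 0.519 ± 0.126 TPM (SD, n = 3). None of the 21 interferon genes reached the TPM minimum: 18 were at 0 in every sgEmpty library. Above 0 in at least 1 library were 3 genes in sgEmpty and 7 in sgSETD1A. Their summed levels overlapped, from 0 to 0.525 TPM in sgEmpty libraries and from 0.372 to 1.33 TPM in sgSETD1A libraries. The highest value of any was 0.548 TPM, of IFNL3 (listed as IL28B), in sgSETD1A replicate 2. IFNB1, named after its values were seen, was at 0 in all sgEmpty libraries and in sgSETD1A replicate 1, and at 0.168 and 0.351 TPM in replicates 2 and 3, so its groups touched at 0. The depth behind these low IFNB1 values is unknown. Many other interferon genes, such as those of the IFNA group, are near-identical copies, so their single values are uncertain. Of 6 tested targets of NF-kB, another factor activated by the sensors, 5 rose and 0 fell, beside 28.0% of all tested genes called higher. They were TNFAIP3 (0.73), RELB (0.60), NFKB2 (0.57), NFKBIA (0.17) and NFKB1 (0.15 log2). TNFAIP3, with a mean of 0.658 TPM in sgEmpty and 1.75 TPM in sgSETD1A, reached the TPM minimum only through its sgSETD1A level. After median-ratio rescaling 3 of the 6 were called higher, beside 1837 of all 11885 tested genes.

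**Figure D4:**
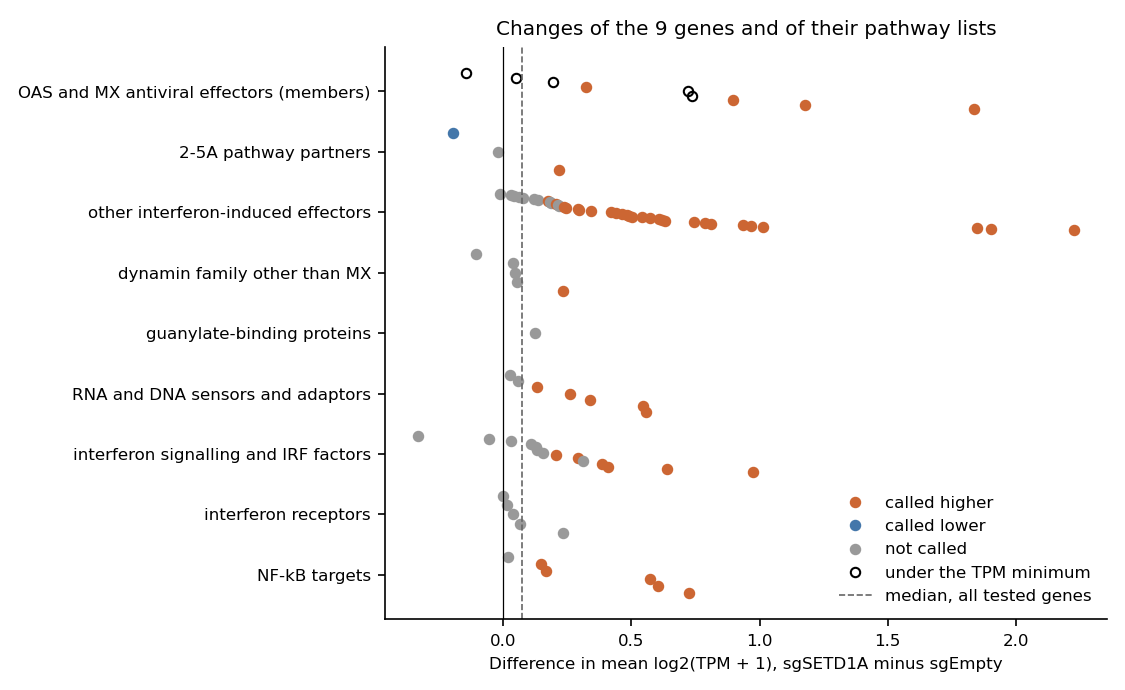
Difference in mean log2(TPM + 1), sgSETD1A minus sgEmpty (horizontal axis), of the 9 genes (top row) and of the tested genes of each pathway list; colours give the limma call, hollow points are those of the 9 genes under the TPM minimum, and the dashed line is the median of all tested genes, 0.073. The 4 tested genes of the top row lie between 0.32 and 1.84, and the receptors include no called gene.

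The 9 genes sit in 5 places in the genome: OAS1, OAS3 and OAS2 adjoin one another on chromosome 12, OASL lies apart on the same chromosome, MX2 adjoins MX1 on chromosome 21, SAMD9 adjoins SAMD9L on chromosome 7 and BST2 is on chromosome 19. The 3 nearest protein-coding genes with TPM values on each side of these places were taken, 30 in all. Any nearer gene without values was passed over. Of these 30 neighbours, 20 were tested, 8 were called higher, 2 lower and 10 not called. Of all tested genes 28.0% were called higher. After median-ratio rescaling 5 of the 20 neighbours were, beside 1837 of all 11885 tested genes. Beside the OAS cluster, PTPN11 rose by 0.18 log2, RPL6 fell by 0.14, and RASAL1 (-0.16) was not called, while RPH3A, DTX1 and CFAP73 (listed as CCDC42B) were under the minimum. No neighbour of the OAS cluster thus came near the difference of 1.84 or 1.18 log2 of OAS1 and OAS3.

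Near OASL, P2RX4, an ATP-gated channel, went from 9.21 ± 0.82 to 16.4 ± 1.06 TPM (SD, n = 3; 0.77 log2, limma adjusted p = 8.92e-05), and CAMKK2 rose by 0.25, while SPPL3 (-0.0022 log2) was not called. Next to BST2, MVB12A (listed as FAM125A), a subunit of the ESCRT machinery, rose by 0.33 log2, as far as BST2 itself, and GTPBP3 (-0.14), ANO8 (0.099) and TMEM221 (0.13) were not called. Around the MX pair, RIPK4 rose by 0.46, TMPRSS2 by 0.24 and BACE2 by 0.18 log2, DSCAM fell by 0.32 and PRDM15 (0.068) was not called. Beside SAMD9 and SAMD9L, FAM133B rose by 0.24 log2, and CDK6 (0.032), RBM48, listed as C7orf64 (0.056), and VPS50, listed as CCDC132 (-0.050), were not called.

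**Figure D5:**
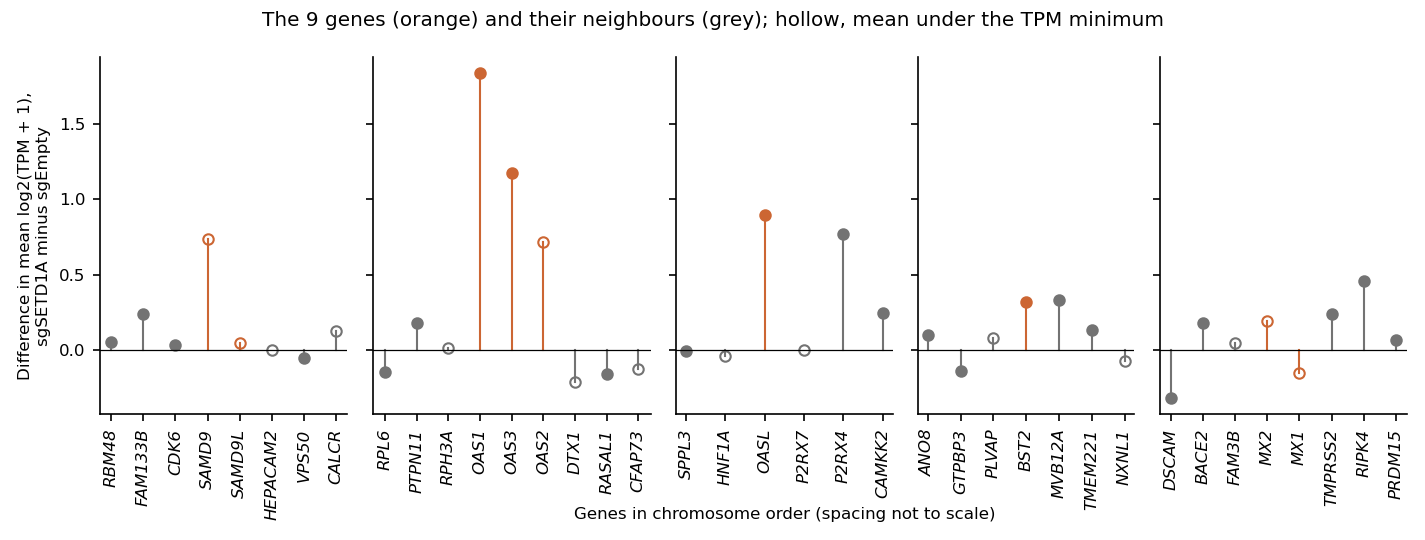
Difference in mean log2(TPM + 1), sgSETD1A minus sgEmpty (vertical axis), of the 9 genes (orange) and of their neighbours (grey). Neighbours are the 3 nearest protein-coding genes with TPM values on each side, 1 neighbour of OASL left out. Genes are in chromosome order with the spacing not to scale, and hollow points have a mean under 1 TPM. OAS1 and OAS3 stand above all their neighbours, and MVB12A stands level with BST2.

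The genes whose profile over the 6 libraries was most like the mean of the 4 tested genes were ISG15, C2orf54, RASD1, HELZ2 and RGS16, by root mean square distance of centred log2(TPM + 1) values. Their distances were 0.044, 0.058, 0.059, 0.072 and 0.083 log2. ISG15 was at 133.4, 117.5 and 119.6 TPM in sgEmpty and at 232.8, 261.1 and 256.8 TPM in sgSETD1A, lowest in replicate 1 within the latter group. RASD1, a small GTPase, went from 53.8 ± 4.06 to 106.5 ± 5.75 TPM (SD, n = 3), and RGS16, a regulator of G protein signalling, from 3.49 ± 0.36 to 7.87 ± 1.02 TPM (SD, n = 3). C2orf54 went from 3.03 ± 0.28 to 7.34 ± 0.56 TPM (SD, n = 3). This measure favours genes with a difference close to 1.04 log2, and it was computed over the same contrast that chose the 9 genes.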

How the data were processed

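Messenger RNA of 6 KPL-1 libraries was sequenced with a stranded kit, per the labels. The authors deposited TPM per gene. The build was hg19, and the tools listed were RSEM 1.3.1, STAR 2.6.0c and bcl2fastq 2.20.0, per the submitters' processing notes, which do not give the role of each. The row without a gene name, holding each column's total, was left out. TPM keeps no depth, so no count test was run. The deposited guide counts were not used. Groups came from the sample titles. The labels do not say whether replicates came from separate cultures. The p-values therefore reflect spread among 6 libraries that could be technical.

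limma 3.58.1 (R 4.3.3), with a mean-variance trend, was fitted to log2(TPM + 1) of 11885 genes with a mean of at least 1 TPM, with Benjamini-Hochberg adjustment and calls at an adjusted p under 0.05. Fold changes on this scale understate those of low genes. The fit was also run on simulated data with few changed genes and independent noise. That setting does not match the share of genes called here or cover the scaling of the libraries. The members and lists were chosen with earlier results of these data known. Named were the 9 genes, SETD1A, up to 6 called genes with the largest change per pathway list, every gene of lists of 6 or fewer, neighbours with a mean of at least 1 TPM, and the 5 nearest profiles. Genes were matched to RefSeq (GRCh38.p14) by symbol or synonym. Alternatives were other pseudocounts, filters and scalings, no trend, a replicate block and leaving out each library. A few genes of these lists are not reported here by name, though the counts include them.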

Additional observations from a re-analysis of the deposited data

How the results depend on the processing

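OAS1, OAS3 and BST2 kept their direction and their call in all 14 alternatives, and OASL in all 13 that could include it (its mean is under 5 TPM, which leaves 3 members in that fit). The count of members called higher was 4 to 4 when each library was left out in turn. The count of other interferon-induced effectors called higher was 25 to 27 in the same runs. Over all tested genes, 2352 to 3479 were called higher and 1289 to 1615 lower when a library was left out. Scaling changed the balance of calls. The deposited TPM gave 3327 higher and 1605 lower calls (67.5% higher), quantile normalization 2142 and 2056 (51.0% higher) and median-ratio rescaling 1837 and 2284 (44.6% higher). The median-ratio shift was -0.071 log2 for the median gene. With the replicate number as a block, 4 members, 27 effectors and 3103 genes were called higher and 1539 lower. Deviations from the group means of same-numbered libraries had correlations of 0.085, -0.10 and 0.17. Over all pairs across the groups they ran from -0.21 to 0.17, and not every library correlated best with its own number. With 3 libraries per group the deviations depend on each other, so these values cannot tell whether same-numbered libraries were paired. The sizes of the OAS2, SAMD9, MX2 and SAMD9L differences were set mainly by the pseudocount, and with no read depth the error of values under 1 TPM cannot be split into counting and other error. Other sizes moved with it too. From a pseudocount of 5 to 0.1 TPM the log2 difference went from 0.35 to 1.41 for OASL. It went from 1.11 to 2.19 for OAS1 and from 0.85 to 1.29 for OAS3.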
